A study of Mus musculus with 11 samples.

Results

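The Hox genes encode homeodomain transcription factors and sit in the mouse genome in 4 clusters, HoxA on chromosome 6, HoxB on chromosome 11, HoxC on chromosome 15 and HoxD on chromosome 2. All gene symbols in both deposited count tables that consist of Hox, a cluster letter from a to d and a number were taken as members, which gave 39 of 24421 symbols, 11 in HoxA, 10 in HoxB, 9 in HoxC and 9 in HoxD. All 39 are annotated on GRCm38, and a homeobox was found in a transcript of each. A count was seen in at least 1 library for 35 of them. Hoxb1, Hoxb13, Hoxd1 and Hoxd12 had 0 counts in all 11 libraries; a count of 0 allows up to 3 counts in a library, by counting error alone.

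RNA was sequenced from skeletal muscle of the hindlimb of mice given tamoxifen, which activates the recombinase CreERT2 carried at Hic1, a gene active in mesenchymal progenitors; the mice also carried a tdTomato reporter, and the groups differ in Ctnnb1, the gene of beta-catenin. WT mice are labelled as wild type at Ctnnb1, and WT/flox mice (WTlFlox in the labels) carry 1 allele whose exon 3 is floxed, so that Cre leaves a stabilised beta-catenin in the recombined cells. Mesenchymal progenitors, negative for CD45, CD31 and alpha7 and positive for Sca1 and tdTomato, were sorted from 3 WT mice (libraries 72B8, 74A2 and 73C3) and 3 WT/flox mice (74A1, 72B7 and 74A3), all at day 14 after tamoxifen except 74A3, at day 56. Whole lysate of the tibialis anterior muscle came from 2 WT mice (73A5 and 73A7) and 3 WT/flox mice (71B3, 71B4 and 71B5), all at day 56. Each library is 1 animal, so the spread between replicates is that between animals; growth and treatment details beyond this, and the age of the animals, are not stated in the labels used here. Because the WT progenitors were taken at day 14 and the muscle at day 56, material and day cannot be told apart in WT, and because the muscle libraries of the WT group all carry the identifier prefix 73A and those of the WT/flox group 71B, prefix and genotype cannot be told apart in muscle. The deposited sample table gives 74A2 and 74A1 as female and the other 9 libraries as male.

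Total counts ran from 13119843 to 16805238 in the progenitor libraries and from 16892158 to 19449227 in the muscle libraries, and the Hox genes together took 2523 to 3255 of them in progenitors and 3383 to 4226 in muscle. The sorted cells carried the markers of the label: 7 progenitor markers (Pdgfra, Ly6a, Dcn, Lum, Col1a1, Col3a1 and Hic1) summed to 4.25% to 6.86% of counts there and to 0.0655% to 0.158% in muscle. Markers of muscle fibres (Acta1, Ckm, Myh4, Atp2a1, Tnnt3 and Mylpf) summed to 10.2% to 14.7% of muscle counts and to 0.00174% to 0.0118% in the progenitors. The 5 muscle stem cell markers (Pax7, Myf5, Vcam1, Itga7 and Cdh15) summed to 0.00224% to 0.00460% of counts in the progenitors and to 0.0117% to 0.0167% in muscle; among them Myf5 and Cdh15 had 0 counts in all 6 progenitor libraries and Pax7 had 0 or 1, while Vcam1 had 282 to 631 and Itga7 had 17 to 59. Axin2, a target of the Wnt pathway, rose in WT/flox progenitors by 5.47 on the log2 scale (SE 0.22, edgeR adjusted p = 4.37e-06).

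Hox proteins give cells a positional identity along the body axis and along the limb, and the order of the genes in a cluster follows the order of the regions in which they are switched on, with low numbers towards the head and high numbers towards the tail and the far end of the limb. Genes with the same number in different clusters are paralogues with similar homeodomains. In the limb bud the genes of groups 9 to 13 pattern the upper limb, the lower limb and the foot in turn, and adult connective tissue cells and fibroblasts are known to keep a Hox pattern that reflects where they lie in the body.

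The homeobox, the 180 bases that encode the DNA-binding homeodomain, is shown for the group 10 paralogues, which hold the most abundant Hox transcripts of both materials, and for the group 13 paralogues, which differed in which material held their counts. Sequences were read from the GENCODE M21 transcripts (GRCm38), 5′ to 3′ on the coding strand. In the lines for Hoxa10 (chr6:52231197-52240854, minus strand) and Hoxd10 (chr2:74691924-74695105, plus strand), capitals mark bases that differ from Hoxc10 (chr15:102966796-102971893, plus strand). In the lines for Hoxd13 (chr2:74668310-74671599, plus strand) and Hoxc13 (chr15:102921103-102928814, plus strand), capitals mark bases that differ from Hoxa13 (chr6:52257694-52260880, minus strand).
Hoxc10: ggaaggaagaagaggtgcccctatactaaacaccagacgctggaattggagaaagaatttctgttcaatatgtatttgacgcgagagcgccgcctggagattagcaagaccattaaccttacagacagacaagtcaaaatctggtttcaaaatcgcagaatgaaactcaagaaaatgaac
Hoxa10: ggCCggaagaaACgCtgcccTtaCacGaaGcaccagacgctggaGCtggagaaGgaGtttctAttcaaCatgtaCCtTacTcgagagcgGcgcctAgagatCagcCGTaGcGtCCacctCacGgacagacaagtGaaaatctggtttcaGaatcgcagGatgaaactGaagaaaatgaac
Hoxd10: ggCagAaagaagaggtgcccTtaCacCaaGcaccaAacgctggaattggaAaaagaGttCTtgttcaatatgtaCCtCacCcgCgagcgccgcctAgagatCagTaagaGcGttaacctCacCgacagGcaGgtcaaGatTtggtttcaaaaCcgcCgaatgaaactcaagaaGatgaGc
Hoxa13: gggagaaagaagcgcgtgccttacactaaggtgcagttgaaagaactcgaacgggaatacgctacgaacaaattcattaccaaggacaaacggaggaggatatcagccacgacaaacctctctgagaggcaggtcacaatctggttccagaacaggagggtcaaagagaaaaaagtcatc
Hoxd13: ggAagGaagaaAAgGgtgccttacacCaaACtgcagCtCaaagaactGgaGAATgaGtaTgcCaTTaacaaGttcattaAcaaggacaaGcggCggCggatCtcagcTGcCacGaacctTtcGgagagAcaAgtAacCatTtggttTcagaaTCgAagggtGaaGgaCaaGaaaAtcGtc
Hoxc13: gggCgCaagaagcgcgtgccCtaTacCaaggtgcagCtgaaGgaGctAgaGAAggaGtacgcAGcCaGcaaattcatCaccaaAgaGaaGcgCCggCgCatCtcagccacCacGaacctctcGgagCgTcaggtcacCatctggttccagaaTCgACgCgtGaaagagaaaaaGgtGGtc
The homeobox of Hoxa10 differed from that of Hoxc10 at 35 bases (80.6% identity) and that of Hoxd10 at 31 (82.8%). Hoxd13 differed from Hoxa13 at 47 bases (73.9%) and Hoxc13 at 41 (77.2%). The longest identical run within these pairs was 16 bases, between Hoxc10 and Hoxd10, shorter than the 43-base reads, so that a read inside the homeobox carries at least 1 difference between these paralogues. Over whole transcripts, 4 of 569 pairs of Hox genes from different clusters shared a run of at least 43 bases, the longest being 52 bases between Hoxb4 and Hoxa6. Within clusters Hoxd3 and Hoxd4, Hoxc10 and Hoxc5, and Hoxa6 and Hoxa7 shared such runs, and counts of these genes are uncertain to the extent that shared reads were split or dropped.

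Levels are compared between genes as counts relative to library size (CPM, with libraries scaled by TMM over all 11) per kb of annotated exon. In WT progenitors the Hox genes summed to between 58.8 and 66.0 CPM per kb, of which HoxC made up 54.0% on average (range 50.5% to 58.9% over 3 libraries), HoxA 31.7% (30.5% to 32.8%), HoxD 9.36% (7.12% to 11.3%) and HoxB 4.95% (3.50% to 5.97%). The order of the clusters was the same in every progenitor library. By position, paralogue groups 9 to 13 made up 59.7% of the sum in WT progenitors (55.5% to 64.2%), groups 4 to 8 made up 36.0% (31.6% to 39.1%) and groups 1 to 3 made up 4.34% (3.403% to 5.39%). WT/flox progenitors held 63.2% in groups 9 to 13 (62.9% to 63.7%), inside the range of the WT libraries.

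**Figure D1:**
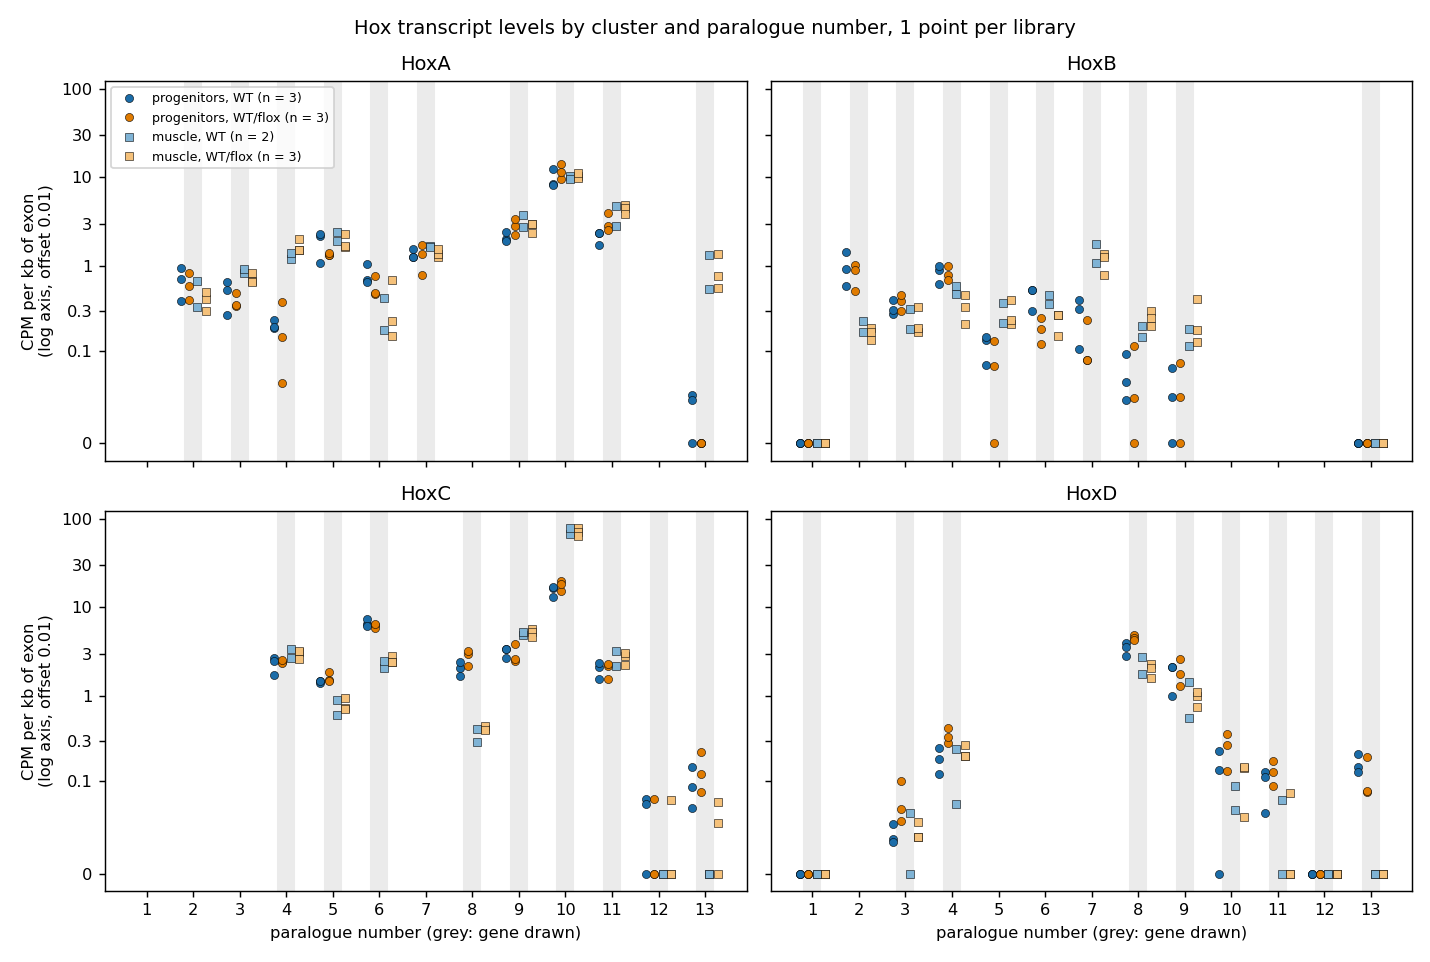
Levels of the Hox genes drawn, in every library, by cluster and paralogue number, in CPM per kb of exon on a log axis with an offset of 0.01. Circles are sorted progenitors and squares whole muscle, blue WT and orange WT/flox. Hoxc10 and Hoxa10 stand highest in both materials, and genes of groups 12 and 13 lie at or near 0 apart from Hoxa13 in muscle.

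Hoxc10, of the group that patterns the lumbar region and the upper hindlimb, was the most abundant Hox transcript in every progenitor library, at 12.9, 16.4 and 17.04 CPM per kb in WT (72B8, 74A2 and 73C3) and 19.8, 15.3 and 18.3 in WT/flox (74A1, 72B7 and 74A3). Hoxa10, its HoxA paralogue, came next at 8.46, 8.16 and 12.4 in WT and 9.67, 11.4 and 14.0 in WT/flox. Hoxc6, a trunk-level gene of the same cluster as Hoxc10, came after it at 6.53, 7.34 and 6.21 in WT and 6.27, 5.88 and 6.48 in WT/flox. These 3 genes did not overlap each other in level within either genotype. Hoxd8, Hoxc9 and Hoxc4 followed in WT, and from Hoxc4 down to Hoxb2, with Hoxa11, Hoxa9, Hoxc8, Hoxc11, Hoxa5, Hoxd9, Hoxc5 and Hoxa7 in between, each gene overlapped the next.

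In HoxD, Hoxd8 (4.01, 2.81 and 3.58 CPM per kb in WT progenitors) and Hoxd9 (2.10, 0.993 and 2.11) carried most of the cluster, with Hoxd8 at 56.2% to 67.2% of the HoxD sum in the WT libraries. Hoxd10 and Hoxd11, the next genes towards the limb end of the cluster, stayed at or below 0.363 and 0.175 CPM per kb in all 6 progenitor libraries. HoxB was led by Hoxb2 (0.916, 0.592 and 1.44 in WT) and Hoxb4 (0.886, 0.614 and 0.999), which regulate hindbrain and neck identity in the embryo, and Hoxb8 and Hoxb9 reached at most 0.117 and 0.0716 in any progenitor library. In HoxA, Hoxa9 (2.04, 2.44 and 1.93) and Hoxa11 (2.36, 1.74 and 2.38), a gene of the lower limb segment, came after Hoxa10. Across HoxA and HoxC, levels in progenitors stood at or above 1.53 CPM per kb in groups 9, 10 and 11 and at or below 0.225 in groups 12 and 13. Over the 6 progenitor libraries 6 members had 3 or fewer counts in sum, namely Hoxa13, Hoxb1, Hoxb13, Hoxc12, Hoxd1 and Hoxd12.

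Whole muscle had a higher Hox sum than the progenitors on the TMM scale, 112 to 125 CPM per kb in WT and 109.7 to 125 in WT/flox, and Hoxc10 alone accounted for most of it. The gene was at 66.6 and 78.0 CPM per kb in WT muscle (73A5 and 73A7) and at 77.7, 71.7 and 63.8 in WT/flox muscle (71B3, 71B4 and 71B5). It made up 82.9% to 84.1% of the HoxC sum in WT muscle, against 42.7% to 49.1% in WT progenitors. HoxC as a whole reached 73.0% of the Hox sum in WT muscle (71.8% and 74.3% in the 2 libraries), and groups 9 to 13 reached 83.9% (83.3% and 84.5%). In a bulk sample, fewer cells of a type and less RNA per cell cannot be told apart, and the cells that carry a Hox transcript in the lysate were not identified here.

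**Figure D2:**
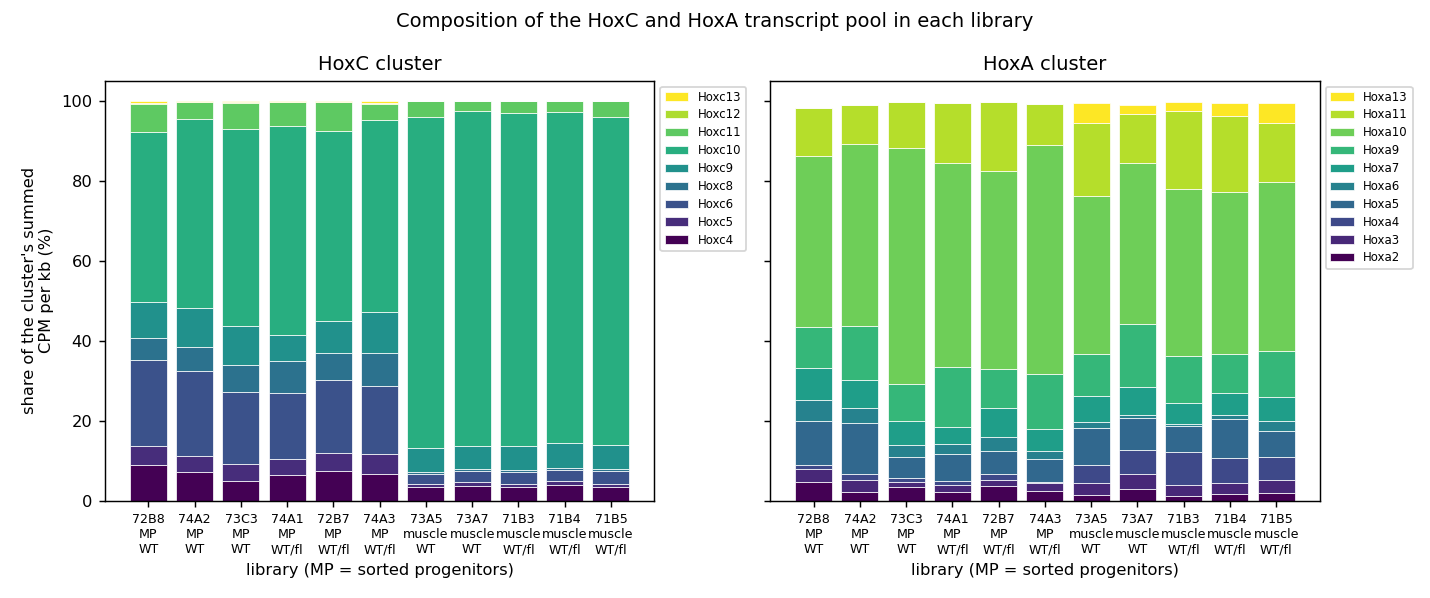
Share of the genes drawn in the summed CPM per kb of the HoxC cluster (left) and the HoxA cluster (right), with 1 bar per library in percent. Hoxc10 takes 42.7% to 52.4% of HoxC in the 6 progenitor libraries and 82.1% to 84.1% in the 5 muscle libraries, and Hoxc6 is the next largest part in progenitors.

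Ratios within a library do not depend on the scaling between libraries. The ratio of Hoxc10 to Hoxc8, in CPM per kb, was 7.65, 7.83 and 7.10 in WT progenitors and 6.63, 7.09 and 5.74 in WT/flox progenitors. In muscle the same ratio was 227.9 and 185.3 in WT and 184.4, 159.9 and 158.6 in WT/flox, so that the 2 materials lay far apart with no overlap. Hoxc10 stood 1.31 to 2.04 times above its paralogue Hoxa10 in progenitors and 5.76 to 8.17 times in muscle. Hoxb7 stood at 0.0753 to 0.348 times the level of Hoxb2, of the same cluster, in progenitors and at 5.65 to 7.68 times in muscle, which turns the order of these genes round between materials. Hoxa4 was at 0.0274 to 0.287 times the level of Hoxa5 in progenitors and at 0.491 to 1.25 times in muscle. The lowest of these values rests on 1 count of Hoxa4 in 74A3. Hoxb7 had 2 counts in each of 74A1 and 72B7, and Hoxb2 had 8 to 10 in the muscle libraries. The exact size of these ratios is therefore uncertain by counting error.

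Testing WT progenitors against WT muscle asks which Hox genes differ between the cells sorted from hindlimb muscle and whole lysate of the tibialis anterior. The cells and the lysate came from different animals at different days, so material, animal, day and the muscle sampled cannot be told apart. Of 29 members tested 13 passed the threshold (edgeR adjusted p under 0.05), 5 higher in progenitors and 8 higher in muscle. Over all genes 76.1% passed, 38.6% higher in progenitors and 37.5% higher in muscle, so a Hox gene passed less often than the background share and the count by itself is no result about the Hox genes. The median absolute log2 fold change was 0.83 over the Hox genes tested and 1.47 over all genes tested. Fold changes below are progenitors over muscle. When libraries were scaled by their totals alone, without TMM, the median log2 fold change of all genes moved up by 0.66, and the split became 9 higher in progenitors and 4 higher in muscle.

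Higher in progenitors were Hoxc8, Hoxb2, Hoxc6, Hoxc5 and Hoxd8. Hoxc8, a gene of the thoracic region, was at 4.79, 5.92 and 6.80 CPM in WT progenitors and at 0.827 and 1.19 CPM in WT muscle, a log2 fold change of 2.53 (SE 0.32, adjusted p = 6.07e-06). Hoxb2 was at 3.20, 2.07 and 5.02 CPM against 0.602 and 0.794 CPM (2.29, SE 0.48, adjusted p = 0.000645). Hoxc6 was at 15.7, 17.7 and 14.96 CPM against 5.04 and 6.04 CPM (1.54, SE 0.20, adjusted p = 5.68e-06). These 3 genes passed under every alternative tried. Hoxc5 (0.94, adjusted p = 0.00747) and Hoxd8 (0.63, adjusted p = 0.0322) did not: Hoxc5 was no longer called without 73A5 (0.69), and Hoxd8 was not called in 7 of the 15 alternatives, among them the DESeq2 test (0.54).

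Higher in muscle were Hoxc10, Hoxa13, Hoxa4, Hoxb7, Hoxa3, Hoxa11, Hoxc9 and Hoxa9. Hoxc10 was at 24.7, 31.2 and 32.5 CPM in WT progenitors and at 127.1 and 148.9 CPM in WT muscle (-2.23, SE 0.18, adjusted p = 6.0e-08). Hoxa4 was at 0.307, 0.380 and 0.314 CPM against 1.88 and 2.23 CPM (-2.59, SE 0.52, adjusted p = 0.000442), and Hoxb7 at 0.492, 0.163 and 0.628 CPM against 1.66 and 2.70 CPM (-2.33, SE 0.54, adjusted p = 0.00132). These 3 genes and Hoxa13 passed under every alternative. Hoxa3 (-0.86), Hoxa11 (-0.83), Hoxc9 (-0.69) and Hoxa9 (-0.61) passed by less and each lost the call under at least 1 alternative. Scaling by library totals left Hoxa9 at 0.07, a change of sign, and gave Hoxa10, not called in the main test at -0.04, a log2 fold change of 0.62 (adjusted p = 0.0177).

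Genes of the same cluster thus differed in direction. In HoxC, Hoxc5, Hoxc6 and Hoxc8 were higher in progenitors and Hoxc9 and Hoxc10 in muscle, although under scaling by library totals Hoxc9 was at -0.02 and not called. In HoxB, Hoxb2 was higher in progenitors and Hoxb7 in muscle. In HoxA, 5 of 10 tested genes were higher in muscle and 0 higher in progenitors in the main test, a split that depended on the scaling. Under scaling by library totals Hoxa4 and Hoxa13 stayed higher in muscle, while Hoxa6 and Hoxa10 were called higher in progenitors. Hoxa3, Hoxa9 and Hoxa11 lost their calls there, and Hoxa9 changed sign. Of the 5 HoxD genes tested only Hoxd8 passed, and all 5 estimates lay above 0. Part of the exon sequence of Hoxb2 (27.3%) and Hoxa11 (35.0%) overlaps an antisense gene, Hoxb3os and Hoxa11os. The same holds for Hoxa4 (16.0%, Gm29430), and Hoxa3 overlaps several genes of the opposite strand (4.9% to 8.4% each). Since no label or file header states the strand setting of the counting, reads of these overlaps cannot be told apart.

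The same contrast in the WT/flox libraries was added after the WT result was known; it compares none of the same libraries, although both come from the same fit. It called 16 of 29 Hox genes, 8 higher in progenitors and 8 higher in muscle, against 78.8% of all genes (39.9% and 38.9%). The 2 genotypes shared 11 calls (11 of the 13 in WT and 11 of the 16 in WT/flox), all in the same direction. Hoxa9 and Hoxa11 were not called in WT/flox, while Hoxb4, Hoxd9 and Hoxd11 were called higher in progenitors and Hoxb5 and Hoxb8 higher in muscle. Hoxc10 was at 37.8, 29.2 and 35.0 CPM in WT/flox progenitors and 148.4, 136.9 and 121.7 CPM in WT/flox muscle (-2.00, SE 0.17). Hoxc8 was at 8.45, 6.11 and 9.03 CPM against 1.19, 1.27 and 1.14 CPM (2.70, SE 0.26). The progenitor library taken at day 56, 74A3, had 35.0 CPM of Hoxc10 and 9.03 CPM of Hoxc8. It is 1 library, and a difference between days was not tested.

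**Figure D3:**
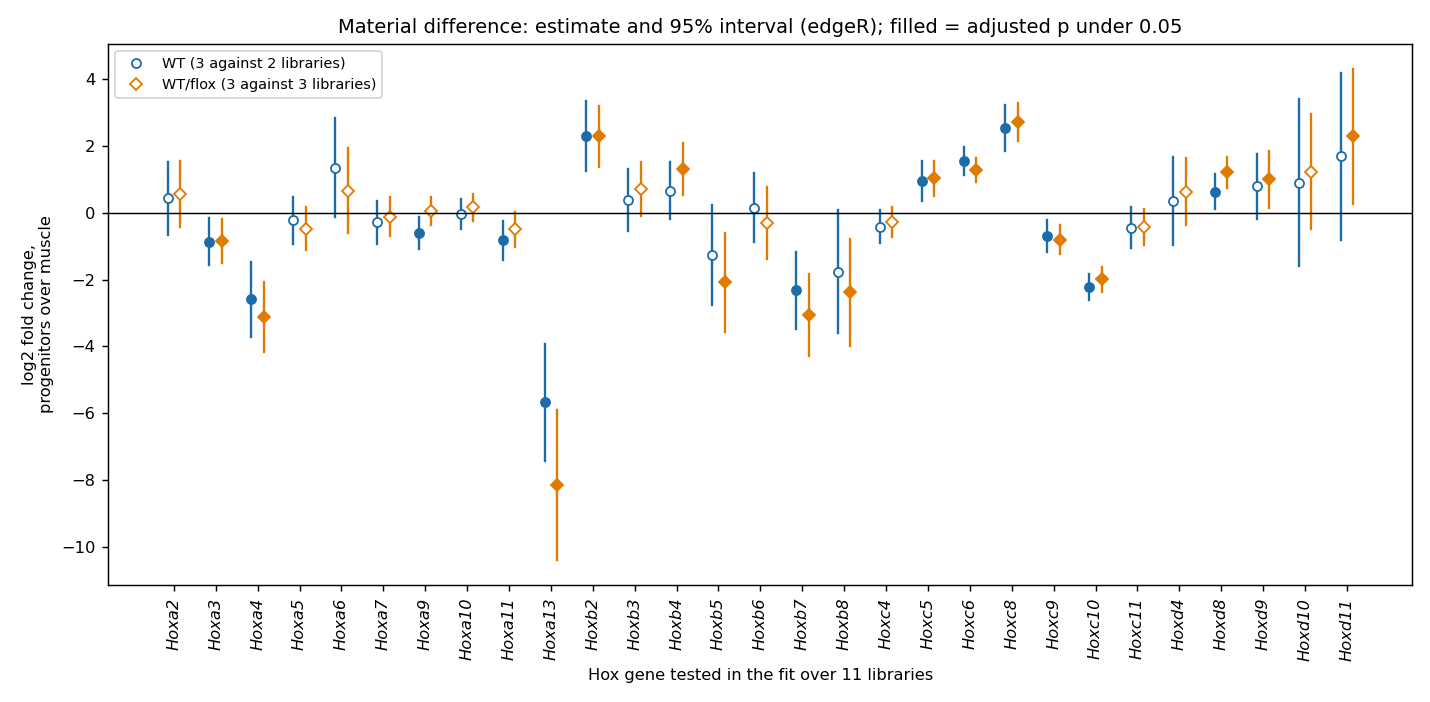
Log2 fold change of progenitors over muscle with its 95% interval for the 29 Hox genes tested, in WT (circles) and WT/flox (diamonds), with filled symbols for an adjusted p under 0.05. Hoxc8, Hoxb2, Hoxc6, Hoxc5 and Hoxd8 lie above 0 in both genotypes and Hoxc10, Hoxa13, Hoxa4 and Hoxb7 below. With scaling by library totals Hoxa9 and Hoxa10 in WT move from below 0 to above. Hoxa5, Hoxa7, Hoxc4 and Hoxc11, below 0 and not called in WT, also reach above 0 among the alternatives. Their highest estimates there are 0.451, 0.38, 0.265 and 0.209. The fitted value of Hoxa13 in WT/flox depends on the prior count, since its progenitor counts are all 0.

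The group 13 genes, which mark the most distal part of the limb in the embryo, were sparse and split between the materials. Hoxa13 had 1, 0 and 1 counts in WT progenitors, 0 in each of the 3 WT/flox progenitor libraries, 43 and 17 counts in WT muscle and 21, 28 and 56 in WT/flox muscle. Every muscle library lay above every progenitor library. The ratio of muscle to progenitors, per scaled library size, was 62.4 in WT (exact 95% interval 16.5 to 527, counting error only). In WT/flox the ratio was 37.1 with the 0 counts of progenitors taken as 3 over the group. That value leaves out counting error in muscle.

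Hoxd13 showed the opposite split: 6, 6 and 10 counts in WT progenitors, 3, 8 and 3 in WT/flox progenitors and 0 in all 5 muscle libraries. With the 0 counts of muscle taken as 3 over the group, progenitors were 3.53-fold higher in WT and 4.41-fold higher in WT/flox. These values leave out counting error in the progenitors. Hoxc13, known for its part in hair and nail, had 6, 2 and 4 counts in WT progenitors and 5, 3 and 9 in WT/flox progenitors, against 0 and 0 in WT muscle and 1, 2 and 0 in WT/flox muscle. Neither Hoxd13 nor Hoxc13 passed the filter on low counts, so neither was tested in the main edgeR fit. Without that filter edgeR called both between materials, in WT and in WT/flox. That setting called 10811 of 17802 genes in WT and 11307 of 17802 in WT/flox.

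**Figure D4:**
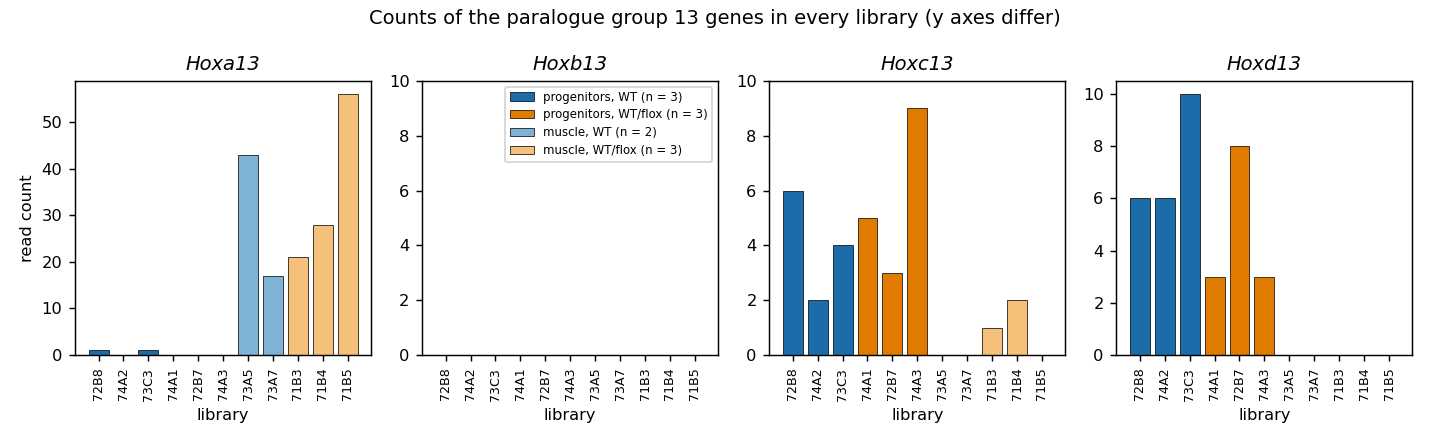
Read counts of the 4 group 13 genes in each of the 11 libraries, with a separate y axis for each gene. Hoxa13 stands at 17 to 56 counts in the muscle libraries and at 0 or 1 in the progenitors, Hoxd13 at 3 to 10 in the progenitors and 0 in muscle, Hoxc13 at 2 to 9 in progenitors and 0 to 2 in muscle, and Hoxb13 at 0 throughout.

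Comparing WT/flox with WT progenitors asks whether the Hox pattern of the cells differed when beta-catenin was stabilised in them. No Hox gene passed: edgeR called 0 of 22 tested, against 3.66% of all genes, and the DESeq2 test and limma voom also called 0. At an unadjusted p under 0.05 there were 3 by edgeR (Hoxb6, Hoxa11 and Hoxd8), 1 by DESeq2 and 3 by limma voom. The share of all genes at that unadjusted threshold was not counted, so these counts are no result about the Hox genes. The median log2 fold change was 0.10 over the 22 genes, 13 above 0 and 9 below, beside 0.001 over all genes tested. For 13 of the 22 the 95% interval lay within a 2-fold change in either direction, and for the other 9 it reached beyond.

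Hoxc10 had a log2 fold change of 0.25 (95% interval -0.12 to 0.62, adjusted p = 0.709), with the 3 WT/flox libraries overlapping the 3 WT libraries. Hoxa10 was at 27.6, 26.7 and 40.6 CPM in WT and 31.6, 37.2 and 45.8 CPM in WT/flox (0.33, -0.12 to 0.77). Hoxc6 had the narrowest interval of the 22, from -0.43 to 0.30 around -0.07. The most abundant Hox genes of these cells thus gave overlapping libraries and intervals that include 0.

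The largest fall was that of Hoxb6, a gene of the trunk and early limb field, at 1.04, 0.598 and 1.046 CPM in WT and 0.240, 0.363 and 0.492 CPM in WT/flox. These libraries did not overlap, but they rest on 48 and 18 counts in sum, and the fold change of -1.23 (SE 0.49) did not pass (adjusted p = 0.302, range 0.259 to 0.754 over the alternatives). The largest rise was that of Hoxd4, at 0.737, 0.544 and 0.366 CPM in WT and 0.839, 1.27 and 0.983 CPM in WT/flox, from 29 and 51 counts (0.95, SE 0.45, adjusted p = 0.443). Hoxa11 was at 5.41, 3.97 and 5.44 CPM in WT and 6.47, 9.07 and 5.84 CPM in WT/flox (0.58, SE 0.24, adjusted p = 0.341), and Hoxd8 at 11, 7.72 and 9.83 CPM in WT and 13.3, 12.3 and 11.8 CPM in WT/flox (0.44, SE 0.19, adjusted p = 0.362). In both genes every WT/flox library lay above every WT library, and in neither did the difference pass. The share of all genes whose libraries separate between genotypes was not counted. Separation by itself is therefore no result about a gene, here or below.

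Of the 17 members not tested in progenitors, Hoxd3 was the only one whose libraries did not overlap between genotypes, at 1, 2 and 1 counts in WT and 3, 7 and 2 in WT/flox when scaled by library size. It shares 388 bases of exon with Hoxd4, so that its reads are uncertain. In progenitors 0 members reached 3 counts in 1 genotype while staying under 3 in the other.

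**Figure D5:**
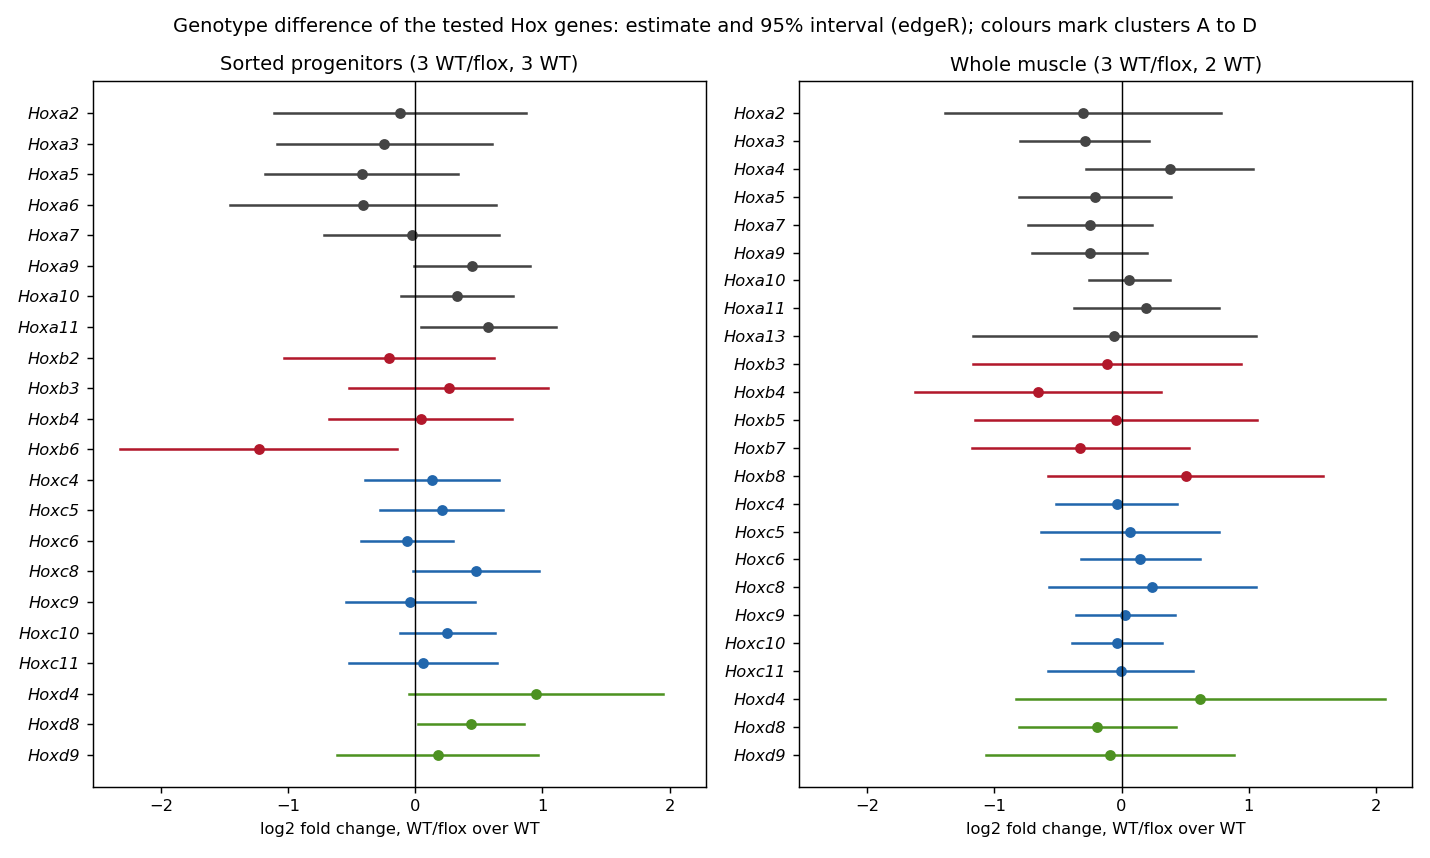
Log2 fold change of WT/flox over WT with its 95% interval for the Hox genes tested in sorted progenitors (left, 22 genes) and whole muscle (right, 24 genes). In progenitors the interval of Hoxb6 lies below 0 and those of Hoxa11 and Hoxd8 just above, none passing after adjustment over all genes; in muscle every interval includes 0.

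The stabilised protein acts with TCF/LEF factors on DNA, and promoters are shown for the genes at an unadjusted p under 0.05 in progenitors; of those 3 genes Hoxa11 and Hoxd8 had a window in the RefSeq table and Hoxb6 had none. The 250 bases before the start are from RefSeq (GRCm38.p6), 5′ to 3′ on the strand of the gene, with capitals for matches to the TCF/LEF letters CTTTG followed by 2 letters that are each A or T, on either strand. The Hoxd8 window is chr2:74704365-74704614 (plus strand) and the Hoxa11 window chr6:52245811-52246060 (minus strand).
Hoxd8: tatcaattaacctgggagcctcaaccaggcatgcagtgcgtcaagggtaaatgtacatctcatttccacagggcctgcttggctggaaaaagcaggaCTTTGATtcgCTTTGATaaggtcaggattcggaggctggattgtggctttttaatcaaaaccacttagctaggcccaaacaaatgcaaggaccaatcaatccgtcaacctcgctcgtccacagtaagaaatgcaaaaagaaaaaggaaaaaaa
Hoxa11: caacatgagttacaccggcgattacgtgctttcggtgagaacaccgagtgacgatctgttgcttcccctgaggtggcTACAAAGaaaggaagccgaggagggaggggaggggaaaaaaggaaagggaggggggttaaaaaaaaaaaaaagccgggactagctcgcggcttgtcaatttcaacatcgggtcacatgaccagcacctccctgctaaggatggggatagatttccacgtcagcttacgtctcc
The RefSeq table held 24 windows of 22 of the 39 Hox genes, each of 300 bases including 50 after the start. These letters were found in 4 of the 24 windows (16.7%; Hoxa11, Hoxd12, Hoxd4 and Hoxd8), next to 16.9% of the 32851 windows of all genes. A Hox-Pbx motif, TGATNNAT, was in 4 windows (16.7%, against 8.8% of all), and a CDX motif, TTTATGG or TTTATTG, in 2 (8.3%, against 7.2%). A match describes these letters and no more.

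In whole muscle edgeR called 0 of 24 Hox genes tested between WT/flox and WT, against 0.727% of all genes, and 0 were at an unadjusted p under 0.05; the DESeq2 test and limma voom called 0 as well, also with 0 at an unadjusted p under 0.05. The median log2 fold change was -0.04, beside 0.003 over all genes, with 9 genes above 0 and 15 below. Hoxc10 was at 127.1 and 148.9 CPM in WT and 148.4, 136.9 and 121.7 CPM in WT/flox (-0.03, 95% interval -0.39 to 0.32), and the genotypes overlapped. Hoxa10 was at 33.8 and 31.2 CPM in WT and 34.1, 31.8 and 36.2 CPM in WT/flox (0.06, -0.26 to 0.38). For 13 of the 24 genes the interval lay within a 2-fold change.

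The largest fall in muscle was that of Hoxb4, at 1.20 and 1.51 CPM in WT and 1.19, 0.869 and 0.539 CPM in WT/flox (-0.66, SE 0.42, adjusted p = 0.707). The largest rise was again Hoxd4, at 0.1504 and 0.715 CPM in WT and 0.597, 0.802 and 0.599 CPM in WT/flox (0.62, SE 0.62, adjusted p = 0.848), where the lower WT library alone had 2 counts. Hoxa13, which was found in muscle, had a fold change of -0.06 with an interval from -1.17 to 1.06, as its libraries ranged from 1.35 to 3.23 CPM in WT and from 1.39 to 3.36 CPM in WT/flox. Hoxc13 had 0 counts summed over WT muscle but 3 over WT/flox muscle, and Hoxd3 had 2 and 4, the only members that reached 3 counts in 1 genotype of muscle and not in the other.

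Whether the genotype difference itself differed between materials was tested in a fit over all 11 libraries. The interaction was called for 0 of 29 Hox genes by edgeR and 0 by DESeq2, against 0.769% of all genes by edgeR, and for 1 gene at an unadjusted p under 0.05 by either tool. That gene was Hoxa9, at 11.4, 13.6 and 10.8 CPM in WT progenitors, 15.9, 12.6 and 18.9 CPM in WT/flox progenitors, 15.5 and 20.8 CPM in WT muscle and 16.4, 12.97 and 16.6 CPM in WT/flox muscle. Its difference of fold changes was 0.65 (SE 0.29, adjusted p = 0.553).

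Hox proteins bind DNA together with the TALE homeodomain proteins of the Pbx, Meis and Pknox families. Between materials in WT, Meis1, Meis2, Meis3 and Pknox1 were higher in progenitors and Pknox2 was higher in muscle. In that contrast 38.6% of all genes were called higher in progenitors and 37.5% higher in muscle, which is the background for the counts of the lists that follow. Meis2 had the widest split, with 312, 393 and 394 counts in WT progenitors and 2 and 4 in WT muscle. The median over the 9 cofactor genes was 0.80, beside 0.09 over all genes.

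Of the genes that set limb type in the embryo, Pitx1 and Tbx4 act in the hindlimb and Tbx5 in the forelimb. Pitx1 had 73, 73 and 85 counts in WT progenitors and 77, 53 and 44 in WT/flox progenitors (-0.25, adjusted p = 0.910). Tbx4 had 174, 267 and 181 in WT and 304, 356 and 290 in WT/flox, with no overlap, and did not pass (0.77, SE 0.21, adjusted p = 0.0873). Tbx5 was counted in these hindlimb cells at 220, 191 and 293 in WT and 220, 189 and 173 in WT/flox, against 0 and 1 in WT muscle and 1, 0 and 4 in WT/flox muscle. All 4 genes of this list, with Isl1, a gene of the early hindlimb field, were called higher in progenitors than in muscle in both genotypes, Isl1 having 0 counts in all 5 muscle libraries.

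Among inputs to the clusters, the caudal genes Cdx1, Cdx2 and Cdx4 had 0 counts in all progenitor libraries. Of 8 tested genes of this list, which also holds retinoic acid synthesis and reception, Aldh1a1 rose (1.34, SE 0.29, adjusted p = 0.0352) and Aldh1a2 fell (-1.33, SE 0.26, adjusted p = 0.0200) in WT/flox progenitors; both make retinoic acid. Aldh1a1 averaged 95.8 ± 24.2 CPM in the WT animals, against 234 ± 94.4 CPM in the WT/flox animals, and Aldh1a2 averaged 76.7 ± 23.1 CPM against 29.6 ± 6.86 CPM (SD, n = 3 each). In muscle 0 of 8 passed. Over all genes 3.66% were called between genotypes in progenitors and 0.727% in muscle. Rarg, the most abundant retinoic acid receptor gene here, was at 118.9 ± 26.3 and 152 ± 14.7 CPM in progenitors (0.41, adjusted p = 0.374).

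The Polycomb complexes keep silent Hox genes off and the Trithorax group keeps active ones on. In progenitors 0 of 19 Polycomb genes and 0 of 9 Trithorax and H3K27 demethylase genes were called between genotypes by edgeR, with medians of 0.03 and 0.03 on the log2 scale, and in muscle 0 of 19 and 0 of 9, with medians of -0.10 and -0.004. The most abundant Polycomb gene, Cbx6, averaged 167 ± 18.9 CPM in the 3 WT and 156 ± 12.1 CPM in the 3 WT/flox progenitor libraries (adjusted p = 0.987). The most abundant Trithorax gene, Kmt2a, averaged 112 ± 42.9 CPM and 110 ± 30.1 CPM in them (adjusted p = 1.0). Between materials in WT, 7 of the 19 Polycomb genes were higher in progenitors and 4 in muscle, beside 38.6% and 37.5% of all genes, so these counts are no result about the Polycomb genes. Pcgf2 (2.47, SE 0.28) had the highest estimate of the 19 and Bmi1 (-1.01, SE 0.22) the lowest.

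Of 11 non-coding RNA genes of the Hox clusters, 3 were tested between genotypes in progenitors and 4 in muscle, and edgeR called 0 in either. Hotair, transcribed from within HoxC, had 19, 19 and 30 counts in WT progenitors and 19, 38 and 16 in WT/flox progenitors, and 11 to 18 in the muscle libraries. Hotairm1, in HoxA, had 2 and 2 counts in WT muscle and 15, 11 and 14 in WT/flox muscle; the difference did not pass (2.40, SE 0.54, adjusted p = 0.135). Its reads are uncertain where its exons meet those of a gene on the opposite strand. Hoxa11os, antisense to Hoxa11, had 68 and 77 counts in WT muscle and 29, 29 and 32 in WT progenitors, higher in muscle (-1.74, SE 0.38, adjusted p = 0.000864), the same direction as Hoxa11, which it overlaps.

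Genes that flank the clusters were listed to set the Hox genes beside their neighbours. Of 7 tested flanking genes 0 were called between genotypes in progenitors or in muscle by edgeR. In WT, 5 of the 7 (Hibadh, Calcoco1, Smug1, Mtx2 and Lnp) were higher in muscle and Cbx5 was higher in progenitors (0.60, adjusted p = 0.0105), beside 37.5% and 38.6% of all genes; 76.1% of all genes passed in either direction. Hibadh flanks HoxA, and Mtx2 and Lnp flank HoxD, the cluster whose 5 tested genes all had estimates above 0. Evx1, beside Hoxa13, had 0 counts in every library, and Evx2, beside Hoxd13, had 0, 1 and 6 counts in WT progenitors and 0 in the other 8 libraries.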

How the data were processed

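The deposited values are raw counts per gene symbol that the authors made from paired 43-base reads of a stranded poly(A) mRNA kit, per the labels' protocols. Tools named in the submitters' processing notes are STAR, Bowtie and bcl2fastq 2.20, with mm10 as the build. Neither the program that made the counts nor its use of strand is stated in the sources used here. The deposited sample table of the lysates calls the cells FAPs (fibro/adipogenic progenitors), and the labels, which call them whole muscle, were followed.

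Genotypes were compared within each material by the robust, two-sided quasi-likelihood F test of edgeR 4.0.16 in R 4.3.3, after filterByExpr and TMM scaling, and a fit over all 11 libraries tested material and interaction. P-values were adjusted by Benjamini-Hochberg over all genes tested, with a threshold of 0.05, and scripts were tested on simulated data. Alternatives were DESeq2 1.42.0, limma voom 3.58.1, other scaling, no filter, sex or identifier prefix as a term, and each library left out. Exon lengths and coordinates came from GENCODE M21 (GRCm38), which named 23376 of the 24421 symbols.

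Members and gene lists were chosen with earlier results of these data known. By rule, values are given for every library for the 2 most abundant genes of each cluster, the largest rise and fall, called genes and genes found in 1 genotype. In the other lists, members called between genotypes, Pitx1, Tbx4, Tbx5 and the most abundant member were named. Some genes that the rule would name are not reported here, in the text or the figures. The number in the deposited sample tables was not used to pair the animals in the main test. Same-numbered progenitor libraries of different genotype correlated at 0.031, 0.294 and -0.133. With 3 libraries per genotype these values cannot tell whether the animals were paired.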

Additional observations from a re-analysis of the deposited data

How the results depend on the processing

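Between genotypes edgeR called 0 Hox genes in progenitors in the main test and in each of its 14 alternatives, 0 in muscle in each of its 11 and 0 for the interaction in each of its 15; 1 to 5 genes in progenitors had an unadjusted p under 0.05 in these settings, apart from 0 without 74A1. With the number in the deposited sample tables as a replicate block the count was 0 in progenitors and 0 in muscle. Over all genes the muscle test called 92. It called 73 without 71B3, 25 without 71B4 and 0 without 71B5, so the background share there depends on which libraries are kept. Scaling by library totals, chosen after the data were seen, moved the median of all genes by 0.66 between materials in WT and to 0.13 between genotypes in muscle. It turned Hoxa9 to 0.07 (adjusted p = 0.795) and Hoxa10 to 0.62 (adjusted p = 0.0177) in WT, and changed the calls higher in progenitors and higher in muscle to 9 and 4 in WT and to 13 and 5 in WT/flox. Leaving out 1 library in turn gave 3 to 6 genes higher in progenitors and 5 to 9 higher in muscle in WT (3 without 73A5 and 5 without 73A7, where the lone WT library is assumed to vary like the other groups), and 6 to 9 and 6 to 10 in WT/flox. In every setting 7 Hox genes were called between materials in WT and 10 in WT/flox.

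With the longest transcript as the gene length, HoxA took 34.5% of the Hox sum in WT progenitors, 25.03% in WT muscle and 25% in WT/flox muscle, and HoxC took 69.2% and 69.7% in WT and WT/flox muscle. In WT/flox progenitors, WT muscle and WT/flox muscle, in that order, groups 1 to 3 took 3.94%, 2.58% and 2.17%, groups 4 to 8 took 35.3%, 15.7% and 15.5%, and groups 9 to 13 took 60.8%, 81.7% and 82.3%. The order of the position groups by mean share was the same with either length, as was that of the clusters except in WT muscle, where HoxD (2.92%) stood above HoxB (2.88%) with the exon length and HoxB (2.96%) above HoxD (2.80%) with the longest transcript. Genes with few counts, such as Hoxc13 and Hoxd13, allow only large differences to be seen.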

Other observations

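Other homeobox and T-box genes of limb mesenchyme were measured in the same libraries. Of 16 tested in progenitors 2 were called between genotypes by edgeR, beside 3.66% of all genes. Meox1, a gene of the embryonic somite and its derivatives, fell from 48.4 ± 13.2 to 15.1 ± 0.871 CPM (SD, n = 3 each; log2 fold change -1.62, SE 0.19, adjusted p = 0.00114), and Prrx2, a homeobox gene of limb mesenchyme, rose from 21.5 ± 1.74 to 33.7 ± 1.11 CPM (0.69, SE 0.15, adjusted p = 0.0319). Prrx1, the most abundant of the list, was at 244 ± 68.6 and 357 ± 90.8 CPM (0.60, SE 0.25, adjusted p = 0.340). In muscle 0 of 16 were called. Between materials in WT, 11 of 18 were higher in progenitors and 5 higher in muscle, beside 38.6% and 37.5% of all genes. Tbx15, a T-box gene known from muscle fibres and mesenchyme, was at 99.4 ± 4.71 CPM in WT progenitors and 553 ± 26.6 CPM in WT muscle (-2.48, SE 0.17, adjusted p = 7.11e-09). Zic1 had 1, 0 and 4 counts in WT progenitors against 46 and 22 in WT muscle (-4.71, SE 0.63, adjusted p = 1.01e-05).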
